A study of Arabidopsis thaliana with 20 samples.

Results

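The 10 genes described here encode the 2 largest subunits of RNA polymerase II and 8 factors that travel with the enzyme through a gene. They were taken by gene identifier and are NRPB1, NRPB2, SPT5-2, SPT6L, SPT16, SSRP1, TFIIS, ELF7, VIP4 and CDC73. All 10 were present in each table, among 33602 genes measured in chromatin-bound RNA and 33554 in mRNA. The RNA came from 10-day-old Arabidopsis thaliana seedlings, grown on half-strength Murashige and Skoog medium at 22 °C with 16 h of light and 8 h of dark. One genotype was the rz-1b rz-1c double mutant, and the other was the wild type Col-0. The targeted genes code for a pair of related proteins that bind RNA and act in pre-mRNA splicing. The sources used here do not give the type of either mutant allele.

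Chromatin-bound RNA is the RNA that stays with washed chromatin, and its strand-specific libraries were depleted of rRNA and of polyadenylated RNA. The labels give 4 such libraries per genotype under 2 replicate numbers, and each table holds 1 FPKM column (fragments scaled to the gene's length and to the column's total) per number, so n = 2 per genotype. The mRNA of each genotype was sequenced in 3 libraries by the labels, which the authors' deposited table reduces to 1 FPKM-like value, with a q-value per gene. Nothing in the labels tells if the replicates were grown separately, and the p-values then cover only the spread between these samples, which may be technical. The iCLIP libraries of RZ-1C-GFP and of GFP alone were not used here.

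RNA polymerase II copies protein-coding genes into pre-mRNA. NRPB1 carries the long C-terminal tail, the CTD, whose phosphorylation marks the stages of transcription and recruits RNA-processing factors, and NRPB1 and NRPB2 together form the catalytic centre. Behind the promoter the enzyme works with elongation factors: SPT5, paired with SPT4, clamps the enzyme on DNA, SPT6 binds the moving enzyme and histones, and the FACT dimer of SPT16 and SSRP1 opens and rebuilds nucleosomes. TFIIS restarts an enzyme that has backtracked, and the PAF1 complex, with the subunits ELF7, VIP4 and CDC73, couples elongation to histone marks. In Arabidopsis the PAF1 complex is known for keeping the flowering repressor FLC active, and loss of it causes early flowering.

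Both targeted genes were lower in the mutant's mRNA, at 2.77 for RZ-1C (AT5G04280) and 2.299 for RZ-1B (AT1G60650) in rz-1b rz-1c, against 31.7 and 15.2 in the wild type, in the authors' deposited table (q = 0.000329 for each). In chromatin-bound RNA, RZ-1C was 4.59 and 4.27 FPKM in the mutant, against 16.7 and 13.1 in the wild type. RZ-1B went against its label there, with 132 and 143 FPKM in the mutant and 10.5 and 9.42 in the wild type, so that mutant means here the columns labelled rz-1b rz-1c. Relative depth was read from the most common ratio between columns among genes under 1 FPKM, and set to 1 for wild-type replicate 2. It came to 2.80 and 2.98 in the mutant columns and 1.51 in wild-type replicate 1. Only 2.44% and 2.19% of the low genes lay at the ratio read for mutant replicates 1 and 2. The direct ratio of mutant replicate 1 to wild-type replicate 2 was 1.40, not 2.80, so these depths are uncertain. Nuclear rRNA took 31.6% and 34.1% of the FPKM total in the mutant, against 53.6% and 60.5% in the wild type. FPKM is a share of a column's total, and the median log2 change of the 19694 genes tested, mutant minus wild type, was 0.27. Unless stated, changes below are as fitted, without that value taken off, and are to be read beside it.

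None of the 10 genes differed between the genotypes in chromatin-bound RNA by limma at an adjusted p under 0.05, a threshold that 17.4% of all genes tested passed. The unadjusted limma p was under 0.05 for 1 of the 10, ELF7, and for 35.8% of all genes. All 10 had a mean of at least 1 FPKM, the level needed for the test, and all 10 had a positive log2 change, between 0.09 and 0.57 with a median of 0.24. The 95% interval of each of the 10 held the median change of all genes, 0.27. For 9 of the 10 the interval also held 0, and for 1, ELF7, it reached a doubling. In 6 of the 10 both mutant columns lay above both wild-type columns, as they did in 49.5% of all genes tested, and in the other 4 the columns of the genotypes overlapped. Columns that do not overlap, in either direction, were found for 65.2% of all genes. After median-of-ratios rescaling, which brings the median of all genes to 0.018 and under which 14.6% of genes were called, 0 of the 10 were called, their median was -0.022, and NRPB2 and ELF7 were the members with a positive change.

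**Figure D1:**
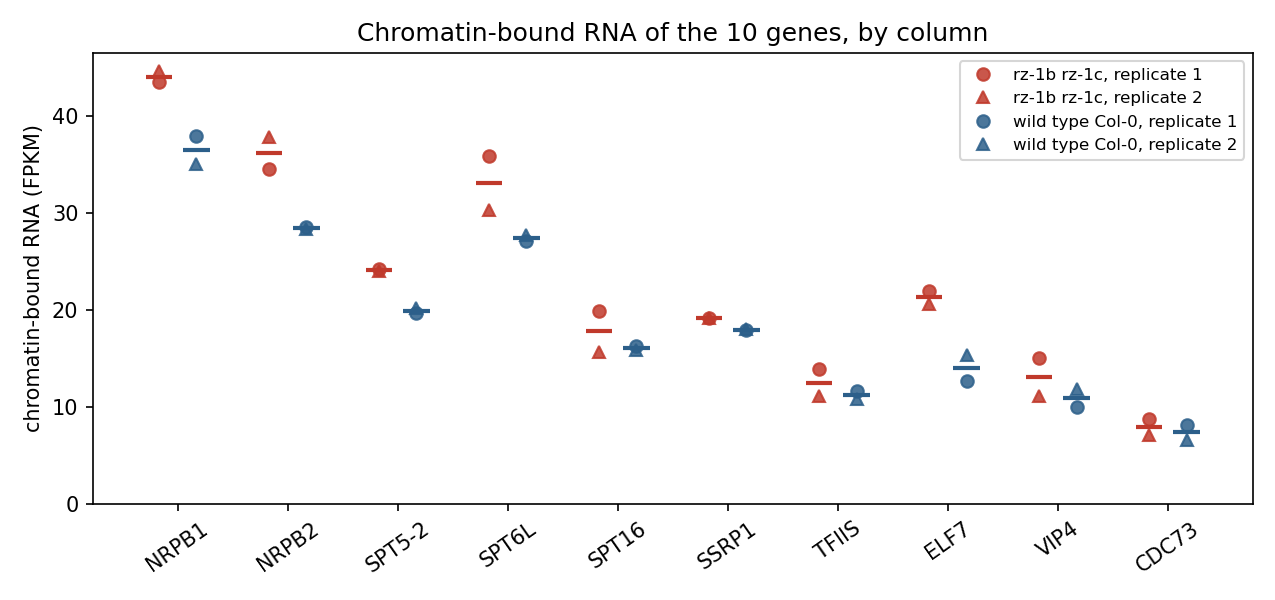
Chromatin-bound RNA in FPKM for each of the 10 genes, with the rz-1b rz-1c columns left of the wild-type columns. Each point is 1 replicate column (circle for replicate 1, triangle for replicate 2) and each short line the mean of 2. NRPB1 is the highest gene in all 4 columns and CDC73 the lowest, and ELF7 shows the widest gap between genotypes relative to its level.

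NRPB1 (AT4G35800), the largest subunit, had 43.6 and 44.6 FPKM of chromatin-bound RNA in the mutant, against 37.9 and 35.1 FPKM in the wild type. Both mutant columns were above both wild-type columns. The log2 change on log2(FPKM + 1) was 0.27 (SE 0.16, 95% interval -0.11 to 0.64, limma adjusted p = 0.273), the same as that of the median gene. Its mRNA was 23.1 in the mutant and 26.0 in the wild type in the authors' deposited table (q = 0.356), so the difference there ran the other way, also without passing the threshold.

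NRPB2 (AT4G21710), the second largest subunit, had 34.5 and 37.8 FPKM in the mutant and 28.5 and 28.3 FPKM in the wild type. The groups did not overlap, and the wild-type columns lay closer together than the mutant columns. Its log2 change was 0.34 (SE 0.16, 95% interval -0.05 to 0.72, limma adjusted p = 0.187). The mRNA value was 25.8 in the mutant and 22.6 in the wild type in the authors' deposited table (q = 0.294).

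Within 1 column the ratio of these subunits does not depend on the column's total. NRPB1 stood at 1.26 and 1.18 times NRPB2 in the mutant columns and at 1.33 and 1.24 times in the wild-type columns, so the groups overlapped. The exact two-sided permutation test of the log2 ratio gave p = 0.667, where 2 columns against 2 cannot go below 0.333. In mRNA, NRPB1 was at 0.893 times NRPB2 in the mutant and 1.15 times in the wild type, as computed from the authors' deposited table, with no replicate to judge that difference by.

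SPT5-2 (AT4G08350), the main SPT5 of Arabidopsis, had 24.2 and 24.0 FPKM of chromatin-bound RNA in the mutant and 19.7 and 20.2 FPKM in the wild type. The groups did not overlap, and replicates of 1 genotype were close. The log2 change was 0.26 (SE 0.16, 95% interval -0.12 to 0.65, limma adjusted p = 0.286), which again was that of the median gene. Its mRNA was 30.3 in the mutant and 27.3 in the wild type in the authors' deposited table (q = 0.439).

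SPT6L (AT1G65440), an SPT6 homologue, had 35.9 and 30.3 FPKM in the mutant, against 27.2 and 27.7 FPKM in the wild type. Both mutant columns were higher, but they differed from each other by more than mutant replicate 2 differed from the wild type. The log2 change was 0.26 (SE 0.17, 95% interval -0.15 to 0.66, limma adjusted p = 0.319), and 0.14 without mutant replicate 1. In the authors' deposited table its mRNA was 28.3 in the mutant and 25.1 in the wild type (q = 0.355). SPT5-2 stood at 0.675 and 0.793 times SPT6L in the mutant columns and at 0.723 and 0.7296 times in the wild-type columns, which overlap (exact permutation p = 1).

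The FACT subunits, with CDC73 and TFIIS, had the smallest log2 changes of the 10. SPT16 (AT4G10710), the large subunit, had 19.9 and 15.7 FPKM in the mutant and 16.3 and 15.8 FPKM in the wild type. Mutant replicate 2 lay below both wild-type columns, so the groups overlapped, and the log2 change was 0.13 (SE 0.19, 95% interval -0.31 to 0.58, limma adjusted p = 0.646). SPT16 mRNA was 21.7 in the mutant and 21.8 in the wild type in the authors' deposited table, the closest pair of values among the 10 (q = 0.982).

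SSRP1 (AT3G28730), the HMG-box subunit of FACT, had 19.2 and 19.2 FPKM in the mutant and 17.9 and 18.0 FPKM in the wild type. The replicates of each genotype were nearly equal and the groups did not overlap, yet the log2 change was only 0.09 (SE 0.17, 95% interval -0.30 to 0.48, limma adjusted p = 0.728). Its mRNA was 31.4 in the mutant and 33.6 in the wild type in the authors' deposited table (q = 0.694). The ratio of SPT16 to SSRP1 in chromatin-bound RNA was 1.04 and 0.820 in the mutant, around the 0.909 and 0.879 of the wild type (exact permutation p = 1).

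TFIIS (AT2G38560), also known as RDO2 from a mutant with reduced seed dormancy, had 13.9 and 11.1 FPKM in the mutant and 11.6 and 10.9 FPKM in the wild type. Mutant replicate 2 fell between the wild-type columns, and the log2 change was 0.14 (SE 0.19, 95% interval -0.32 to 0.59, limma adjusted p = 0.645). In mRNA it was at 15.4 in the mutant and 18.0 in the wild type in the authors' deposited table, the lowest ratio of the 10, at 0.857-fold (q = 0.474).

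ELF7 (AT1G79730), the PAF1 subunit that names the complex in yeast, had the largest difference of the 10 on the log2 scale in each kind of RNA. Its level on chromatin was 22.0 and 20.7 FPKM in the mutant and 12.7 and 15.4 FPKM in the wild type, 1.52-fold on the means. The groups did not overlap, and the lower mutant column stood above the higher wild-type column by more than the replicates of either genotype differed. The log2 change was 0.57 (SE 0.18, 95% interval 0.14 to 1.002), with an unadjusted p of 0.0160 and a limma adjusted p = 0.0709, and after median-of-ratios rescaling 0.31 (limma adjusted p = 0.315). Over the 11 alternatives the limma adjusted p ran between 0.0589 and 0.387. ELF7 mRNA was 27.5 in the mutant and 23.0 in the wild type in the authors' deposited table, 1.19-fold, with the lowest q of the 10 at 0.169.

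In the RefSeq gene table ELF7 overlaps the protein-coding gene AT1G79740, and the sources used here do not give whether strand was used in counting. AT1G79740 itself had 34.1 and 30.9 FPKM in the mutant, against 12.7 and 16.7 FPKM in the wild type (log2 change 1.10, SE 0.19, limma adjusted p = 0.0127). Its order of columns is that of ELF7, and the part of shared reads in the ELF7 values was not tested. SSRP1 overlaps CYP81D11 (AT3G28740) and TFIIS overlaps AT2G38570, and neither of these neighbours was called (limma adjusted p = 0.175 and 0.216).

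VIP4 (AT5G61150), the LEO1 subunit of the PAF1 complex, had 15.1 and 11.2 FPKM in the mutant and 10.0 and 11.9 FPKM in the wild type. Mutant replicate 2 lay between the wild-type columns, and the log2 change was 0.23 (SE 0.21, 95% interval -0.27 to 0.74, limma adjusted p = 0.466). It was 0.030 without mutant replicate 1, 0.43 without mutant replicate 2 and 0.12 without wild-type replicate 1. Its mRNA, the highest of the 10 in the mutant, was 32.0 there and 28.1 in the wild type in the authors' deposited table (q = 0.326). CDC73 (AT3G22590), the parafibromin homologue, had 8.77 and 7.16 FPKM in the mutant and 8.16 and 6.59 FPKM in the wild type, so the columns interleaved. Its log2 change was 0.10 (SE 0.21, 95% interval -0.40 to 0.60, limma adjusted p = 0.767), and its mRNA was 16.2 in the mutant and 14.0 in the wild type in the authors' deposited table (q = 0.354).

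Among the PAF1 subunits the ratio of ELF7 to VIP4 was 1.46 and 1.85 in the mutant columns and 1.27 and 1.295 in the wild-type columns. These groups did not overlap, and the log2 difference was 0.36 (exact permutation p = 0.333, the smallest that 2 columns against 2 allow). Without mutant replicate 2 that difference was 0.18, and without mutant replicate 1 it was 0.53. The same ratio in mRNA was 0.860 in the mutant and 0.819 in the wild type, from the authors' deposited table. For CDC73 to VIP4 the chromatin-bound ratio was 0.581 and 0.641 in the mutant and 0.814 and 0.555 in the wild type, which overlap (exact permutation p = 1).

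**Figure D2:**
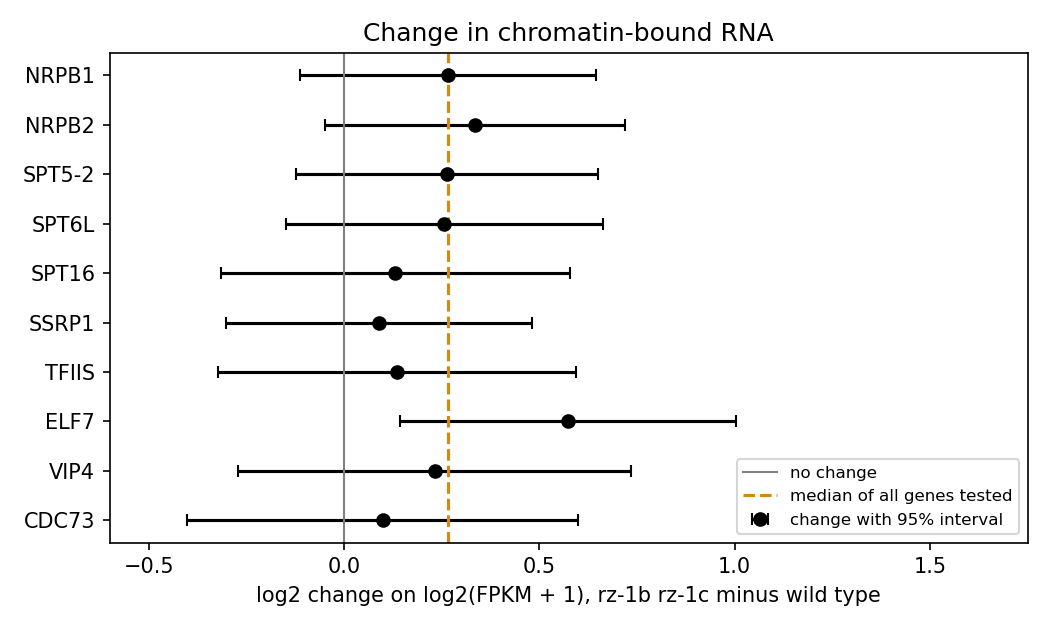
The log2 change on log2(FPKM + 1) in chromatin-bound RNA, rz-1b rz-1c minus wild type, for the 10 genes, with 95% intervals from limma (n = 2 per genotype). The grey line is no change and the dashed line the median of all genes tested, 0.27. Each interval crosses the dashed line, and ELF7 has the 1 interval that does not reach 0.

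The order of the 10 levels in chromatin-bound RNA was nearly the same in all columns. NRPB1 came first, above 93.2% and 93.4% of the genes with a value in the mutant columns and above 91.9% in each wild-type column. NRPB2 and SPT6L followed, and their ranges overlapped in the mutant but not in the wild type. SPT5-2 came next in each column. ELF7 stood directly below it in both mutant columns, and below SSRP1 and SPT16 as well in both wild-type columns. VIP4 and TFIIS overlapped in both genotypes, and CDC73 was last, above 54.2% and 51.1% of genes in the mutant and 53.9% and 49.2% in the wild type.

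In mRNA the order of the 10 differed. The authors' deposited table runs from 15.4 for TFIIS to 32.0 for VIP4 in the mutant and from 14.0 for CDC73 to 33.6 for SSRP1 in the wild type. NRPB1, first in chromatin-bound RNA, stood below VIP4, SSRP1, SPT5-2, SPT6L, ELF7 and NRPB2 in the mutant's mRNA and below SSRP1, VIP4 and SPT5-2 in the wild type's. VIP4, near the low end in chromatin-bound RNA, was the highest of the 10 in the mutant's mRNA and next to SSRP1 in the wild type's. Levels of the 2 kinds of RNA were not set against each other, and only the order within each is compared.

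None of the 10 was called in mRNA at a q under 0.05 in the authors' deposited table, where 34.6% of the 20851 genes with a q under 1 were. Their q-values lay between 0.169 and 0.982. By its ratio of mutant to wild type, computed from that table, 6 of the 10 were higher and 4 lower, with log2 ratios between -0.22 and 0.26 and a median of 0.16, beside a median of -0.010 over 20256 genes that reached 1 FPKM in either genotype and were above 0 in both. NRPB1, SPT16, SSRP1 and TFIIS were the 4 lower ones.

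**Figure D3:**
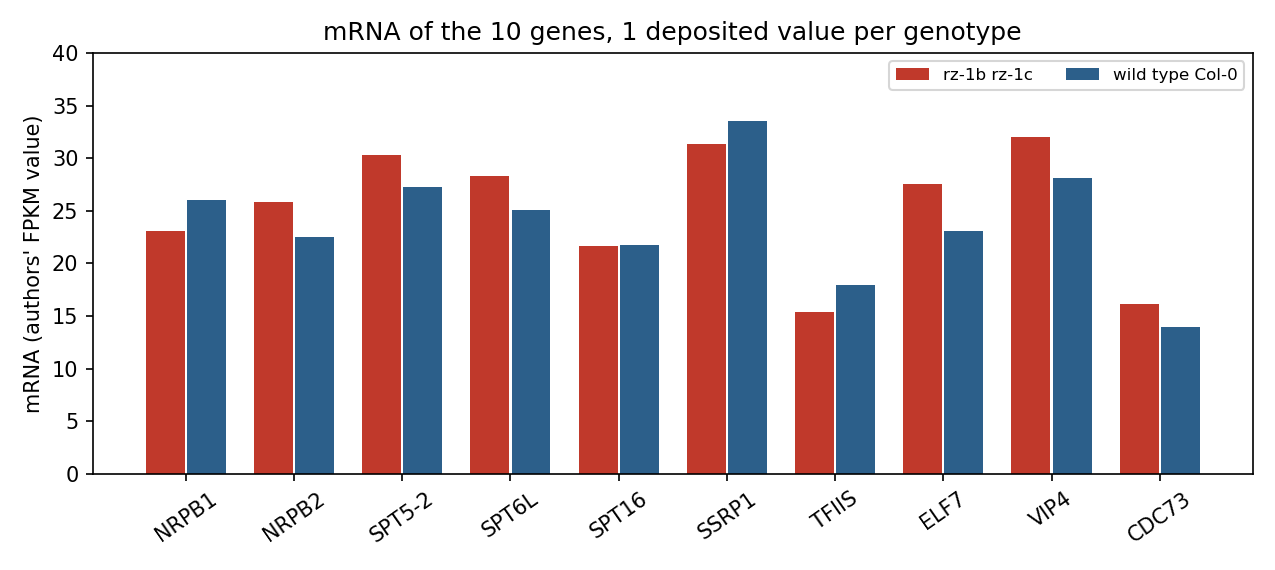
mRNA of the 10 genes as the authors' deposited FPKM-like value, with rz-1b rz-1c left of wild type. Each bar is 1 value per genotype with no error. The pairs differ by at most 1.19-fold, at ELF7, and VIP4, SSRP1 and SPT5-2 are the highest in the mutant.

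The remaining 13 subunit genes of RNA polymerase II, a list that covers NRPB3 to NRPB12 with their paralogs, held no call in chromatin-bound RNA among the 12 tested, and 0 of these had an unadjusted limma p under 0.05. Their median log2 change was 0.14, and the highest expressed, NRPB5 (AT3G22320), which is shared with other polymerases, had 19.5 and 15.1 FPKM in the mutant and 15.1 and 12.2 FPKM in the wild type. In mRNA 2 of the 13 were higher and 11 were not called. NRPB5 mRNA was 82.9 in the mutant and 55.9 in the wild type in the authors' deposited table, 1.48-fold (q = 0.000329). NRPB10 (AT1G11475) was at 52.0 in the mutant and 36.9 in the wild type in the authors' deposited table (q = 0.0153).

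The large and small subunits of the enzyme stood in a different order in the 2 kinds of RNA. In each chromatin-bound column 0 of the 13 smaller subunits were above NRPB1 or NRPB2, and their highest value was 19.5 FPKM in a mutant column and 15.1 in a wild-type column. In mRNA, by the authors' deposited table, 9 of the 13 were above NRPB1 in the mutant and 8 in the wild type, and 8 were above NRPB2 in each. This was so in both genotypes, and it is a comparison of orders within each kind of RNA.

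Large subunits of the other nuclear polymerases were called where NRPB1 and NRPB2 were not, though the difference between the enzymes was not tested. Of 7 such genes 3 were higher in the mutant in chromatin-bound RNA and the same 3 in mRNA. Of all genes 13.2% were called higher in chromatin-bound RNA, 16.9% in mRNA and 4.99% in both. NRPC2 (AT5G45140), of RNA polymerase III, had 19.8 and 17.2 FPKM in the mutant and 8.35 and 9.26 FPKM in the wild type (log2 change 0.99, SE 0.19, limma adjusted p = 0.0154), and 10.7 in the mutant and 6.39 in the wild type in mRNA in the authors' deposited table. NRPA2 (AT1G29940), of RNA polymerase I, had 32.8 and 33.2 FPKM in the mutant and 18.7 and 16.5 FPKM in the wild type (log2 change 0.87, limma adjusted p = 0.0174). NRPA1 (AT3G57660), its partner, had 26.2 and 24.1 FPKM in the mutant and 15.4 and 16.1 FPKM in the wild type (log2 change 0.64, limma adjusted p = 0.0422). NRPA1 lost its call after median-of-ratios rescaling (limma adjusted p = 0.160). With rRNA genes left out of the column totals none of the 3 was called (limma adjusted p = 0.0575 for NRPC2, 0.0505 for NRPA2 and 0.214 for NRPA1). NRPA1 and NRPA2 mRNA were 9.65 and 13.6 in the mutant, against 5.59 and 8.65 in the wild type, in the authors' deposited table (q = 0.000329 for each). The large subunits of polymerases IV and V and NRPC1 were not called in either kind of RNA.

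Partners and paralogs of the elongation factors held no call in chromatin-bound RNA among the 7 of 9 tested, and 1, ELF8, had an unadjusted limma p under 0.05. ELF8 (AT2G06210), the CTR9 subunit of the PAF1 complex, had 17.02 and 17.7 FPKM in the mutant and 10.7 and 12.6 FPKM in the wild type (log2 change 0.54, SE 0.18, limma adjusted p = 0.0796), values named here after they were seen. IWS1 (AT1G32130), a partner of SPT6 and the highest expressed of this list, had 24.5 and 19.4 FPKM in the mutant, against 22.6 and 23.4 FPKM in the wild type. The SPT5-1 and SPT6 paralogs had means under 1 FPKM: SPT5-1 (AT2G34210) was listed at 0 in both mutant columns, with wild-type values of 0.282 and 0.631 FPKM. SPT6 (AT1G63210) had mutant values of 0.639 and 0.584 FPKM and was listed at 0 in both wild-type columns. In mRNA 0 of the 9 were called in the authors' deposited table, beside 34.6% of genes with a q under 1. SPT4-2 (AT5G63670) was the highest of the 9 there, at 53.4 in the mutant and 52.5 in the wild type (q = 0.928).

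Over 9 lists of transcription machinery other than the 10 genes, 76 of 79 genes were tested in chromatin-bound RNA and 10 were higher in the mutant, 0 lower and 66 not called, while 13.2% of all genes tested were higher and 4.24% lower. TFIIB1 (AT2G41630), which bridges promoter and enzyme, had 43.3 and 54.6 FPKM in the mutant and 24.7 and 18.5 FPKM in the wild type (log2 change 1.15, SE 0.21, limma adjusted p = 0.0144), the 1 call among 12 initiation factors. Of 5 CTD phosphatases 2 rose, CPL3 (AT2G33540), with 34.97 and 34.0 FPKM in the mutant and 17.05 and 19.6 FPKM in the wild type, and CPL2 (AT5G01270), with 28.0 and 27.5 FPKM in the mutant and 15.4 and 14.1 FPKM in the wild type (limma adjusted p = 0.0172 and 0.0171). The cyclin T gene CYCT1;3 (AT1G27630) rose 1.86-fold, with 41.7 and 46.5 FPKM in the mutant and 26.6 and 20.9 FPKM in the wild type, and was the 1 call among 9 CTD kinases and cyclins (limma adjusted p = 0.0235). In Mediator, which links regulators to the enzyme, MED23 (AT1G23230) rose 1.70-fold and MED13 (AT1G55325), of the kinase module, 1.54-fold, out of 13 (limma adjusted p = 0.0346 and 0.0462). An unadjusted limma p under 0.05 was found for 7 of 12 initiation factors, 3 of 5 CTD phosphatases and 2 of 9 CTD kinases and cyclins. The same held for 5 of 13 Mediator genes, 3 of 6 Elongator genes and 4 of 7 large subunits of other polymerases. Of all genes tested 35.8% had such a p.

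The Elongator scaffold gene ELO2 (AT5G13680) was called in opposite directions in the 2 kinds of RNA, though the chromatin-bound call depended on the setting. The share of all genes called in opposite directions was not counted. ELO2 had 22.2 and 20.5 FPKM of chromatin-bound RNA in the mutant and 12.4 and 10.2 FPKM in the wild type (log2 change 0.87, SE 0.18, limma adjusted p = 0.0229). The call was lost with rRNA genes left out (log2 change 0.58, limma adjusted p = 0.0667) and without the filter on low values (limma adjusted p = 0.0503). Without wild-type replicate 2 its log2 change was 0.74. Its mRNA was 6.21 in the mutant and 8.38 in the wild type in the authors' deposited table (q = 0.0207). The other 5 Elongator genes were not called in either. Of 5 genes for histone marks laid down in elongation 0 were called and 2 had an unadjusted limma p under 0.05; the highest expressed, UBC1 (AT1G14400), a ubiquitin-conjugating enzyme for H2B, had 31.1 and 27.0 FPKM in the mutant and 42.5 and 37.3 FPKM in the wild type, and was called lower after rescaling (limma adjusted p = 0.0221).

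In mRNA 6 of the 79 were higher, 1 lower and 72 not called in the authors' deposited table, where 16.9% and 17.7% of genes with a q under 1 were higher and lower. XPB2 (AT5G41360), a helicase of TFIIH, was the 1 initiation factor among them, at 8.81 in the mutant and 6.21 in the wild type (q = 0.0106). No CTD kinase, CTD phosphatase, Mediator or histone mark gene was called there, and the highest of each in the wild type were CDKC;2 at 25.9 in the mutant and 24.6 in the wild type, SSU72 at 12.4 and 14.6, MED6 at 18.3 and 19.8 and UBC1 at 139 and 166. After median-of-ratios rescaling 5 of the 76 genes were higher and 1 lower in chromatin-bound RNA, beside 6.76% and 7.85% of all genes, and NRPA1, CYCT1;3, CPL3, MED23 and MED13 were no longer called. With rRNA genes left out of the column totals 1 list gene was higher and 1 lower, beside 5.16% and 7.38% of all genes. Without wild-type replicate 2, when 12.7% of all genes were called (8.93% higher and 3.72% lower), 5 list genes were higher and 0 lower. Without mutant replicate 1, and likewise without mutant replicate 2, 0 list genes were called, where 1.78% and 1.16% of all genes were.

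**Figure D4:**
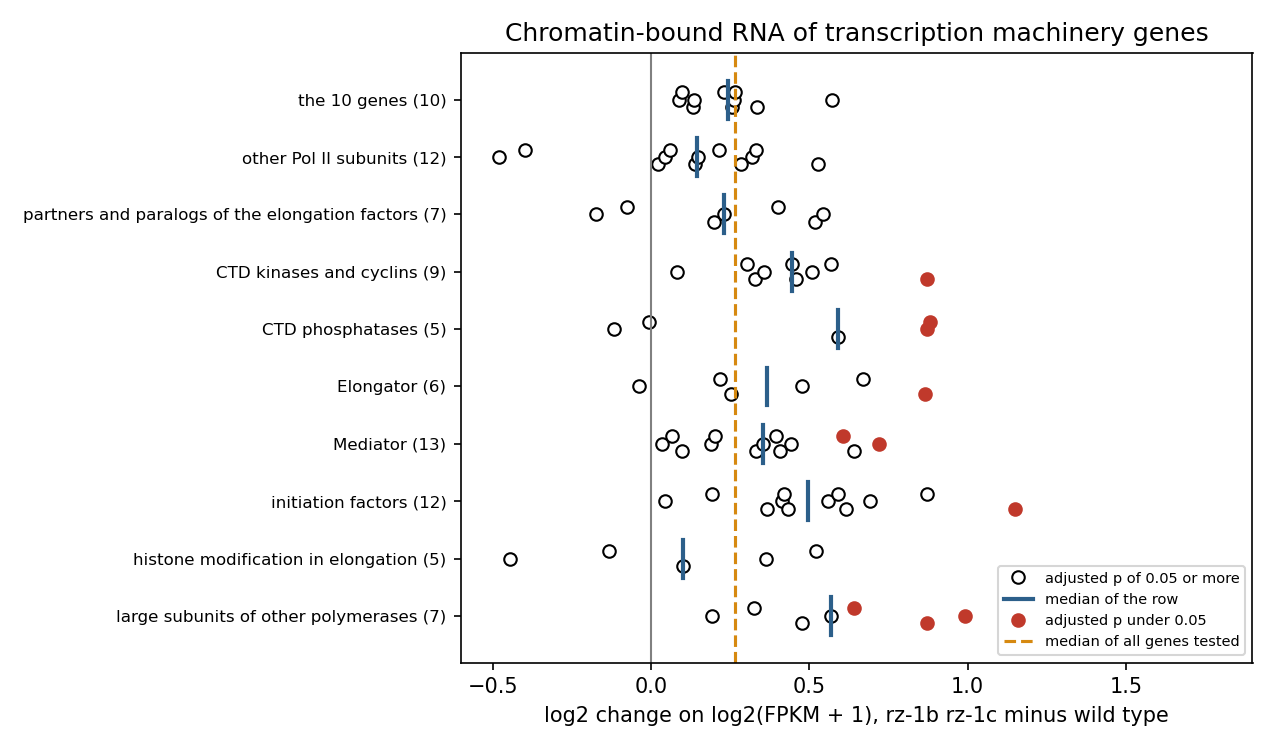
Log2 change in chromatin-bound RNA, rz-1b rz-1c minus wild type, on log2(FPKM + 1), for each gene tested in 10 groups of transcription genes, with the number tested in brackets. Filled points passed limma's adjusted p of 0.05, short lines are row medians and the dashed line is the median of all genes, 0.27. The 10 genes of the top row hold no filled point, and the bottom row holds 3.

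In chromatin-bound RNA some markers of seed and root differed between the genotypes, and others did not. Of 9 seed markers 4 were tested and all 4 rose, each passing the filter through its mutant values, and the summed level of the 9 was 68.7 and 95.8 FPKM in the mutant and 4.52 and 2.26 FPKM in the wild type. CRA1 (AT5G44120), a seed storage globulin, had 44.8 and 58.4 FPKM in the mutant against 1.14 and 0 in the wild type, OLEO2 (AT5G40420) rose by 3.30 on the log2 scale, CRC (AT4G28520) by 3.16 and OLEO1 (AT4G25140) by 1.47. The columns of OLEO4, SESA1 and SESA3, which were not tested, overlapped between the genotypes. Of 5 root markers IRT1 (AT4G19690) rose by 3.55, BGLU21 (AT1G66270) fell by 1.29 and PRP3 (AT3G62680) fell by 0.90 on the log2 scale. EXPA7 (AT1G12560) and PRX72 (AT5G66390) were not called, with log2 changes of 0.010 and 0.027. Of all genes tested 13.2% were called higher and 4.24% lower in chromatin-bound RNA. IRT1, too, passed the filter through its mutant values. In mRNA 6 of the 9 seed markers were called higher, 0 lower and 3 not called in the authors' deposited table. OLEO4 and SESA3 were among the higher ones. The summed mRNA value of the 9 was 602 in the mutant and 10.7 in the wild type. All 5 root markers were called lower in that table, IRT1 among them, at 2.47 in the mutant and 8.71 in the wild type (q = 0.000620). Of genes with a q under 1, 16.9% were called higher and 17.7% lower there. The 6 leaf markers held no call in chromatin-bound RNA, where 1 had an unadjusted limma p under 0.05, with sums of 2584 and 2880 FPKM in the mutant and 3187 and 2439 in the wild type. In mRNA 1 of the 6 was higher, 2 lower and 3 not called in the authors' deposited table. RBCS2B (AT5G38420) was the higher one, at 3628 in the mutant and 1801 in the wild type, and CAB1 (AT1G29930), at 14931 and 23997, and LHCA3 (AT1G61520), at 2803 and 4593 in the same order, were the lower ones. A different make-up of tissue and a different level per cell cannot be told apart in whole seedlings, and the part of such markers in the values of the 10 genes was not tested.

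The genes whose chromatin-bound levels lay nearest to NRPB1, by Euclidean distance of log2(FPKM + 1) over the 4 columns, were LBA1 (AT5G47010), AT5G47690 and TOR (AT1G50030), at distances of 0.084, 0.090 and 0.101. LBA1 had 42.4 and 44.0 FPKM in the mutant and 36.8 and 36.5 FPKM in the wild type. Nearest to NRPB2 were ATS1 (AT1G32200), KAC1 (AT5G10470) and AT2G07360, at 0.0896, 0.102 and 0.118. With 4 columns and many genes of like level such closeness is a description of levels.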

How the data were processed

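For chromatin-bound RNA the authors deposited FPKM values, a table for each genotype with 2 columns. How the 2 libraries of a replicate number became 1 column is not stated. 1 further column, identical to mutant replicate 2, was left out. The mRNA table that the authors deposited holds a single value for each genotype, read here as FPKM although the file names no unit, and q-values, which are adjusted p-values per the file headers. Without saying what each was used for, the submitters' processing notes name the aligners TopHat2 2.1.1 and HISAT2 2.0.5, the programs Cuffdiff 2.2.1, Cufflinks and StringTie 1.3.4d, and the genome TAIR10. Total counts are unknown. Relative depth was read from the most common ratio between columns among genes under 1 FPKM, chained through mutant replicate 2, since the direct ratio of mutant replicate 1 to wild-type replicate 2 gave 1.40. All 279 organelle genes are listed at 0.

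The 2 mutant and 2 wild-type columns, which come from separate tables, were compared on log2(FPKM + 1) by limma 3.58.1 (R 4.3.3, trend fitted, two-sided). Genes averaging under 1 FPKM were left out, and p-values of the remaining 19694 were adjusted by Benjamini-Hochberg, with a threshold of 0.05. Fold changes on that scale understate the change of low genes, and other folds are ratios of mean FPKM. mRNA calls are the authors' q under 0.05, and their ratios were recomputed. Gene names came from the RefSeq table of assembly TAIR10.1, which matched 32835 of 33602 identifiers, and no coordinates are printed because the builds differ in name.

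The 10 genes and the lists were chosen with earlier results of these data known. Named genes are the 10, up to 4 called members of each list by size of change or its highest expressed gene, the targeted genes and the 3 genes nearest to NRPB1 and to NRPB2. Alternatives were 3 rescalings, 2 filters, a pseudocount of 0.1, each replicate left out and a replicate block.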

Additional observations from a re-analysis of the deposited data

Results flagged for a closer look

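NRPB1 and SSRP1 were flagged by a rule on direction. Both mutant columns lay above both wild-type columns in chromatin-bound RNA, while the authors' deposited mRNA value was lower in the mutant than in the wild type. Columns in that order were found for 49.5% of all genes tested. The share of all genes with both features was not counted. NRPB1 had a log2 change of 0.27 in chromatin-bound RNA and a log2 ratio of -0.17 in mRNA. For SSRP1 the values were 0.089 and -0.096. The difference between the 2 kinds of RNA was not tested, since mRNA has 1 value per genotype, and neither gene was called in either. Relative to the median gene the chromatin-bound changes were 0.00059 for NRPB1 and -0.18 for SSRP1. After median-of-ratios rescaling both were negative, at -0.0082 and -0.18, so the opposite directions depended on the scaling.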

How the results depend on the processing

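None of the 10 genes was called under any of the 11 alternatives, and none by the authors' q under 0.01. The number of all genes called in chromatin-bound RNA by limma was 3430, with 2595 higher and 835 lower, and moved to 1931 without the filter on low values and to between 227 and 4988 with 1 replicate left out, the lowest without mutant replicate 2, with 348 without mutant replicate 1. After median-of-ratios rescaling the split was 1329 higher and 1544 lower, by quantile normalization 1381 and 1464, and with rRNA genes left out 1095 and 1568. With the replicate block, 4520 genes and 0 of the 10 were called, and deviations of same-numbered columns correlated with r = 0.0142 across genes, so the numbers were not read as pairs. Directions of the small changes followed the scaling. After median-of-ratios rescaling the log2 changes were -0.0082 for NRPB1, -0.0056 for SPT5-2, -0.016 for SPT6L, -0.13 for SPT16, -0.18 for SSRP1, -0.12 for TFIIS, -0.029 for VIP4, -0.15 for CDC73 and -0.18 for CAB1. With rRNA genes left out they were -0.056, -0.053, -0.063, -0.19, -0.23, -0.18, -0.076, -0.20 and -0.23 in the same order of genes. By quantile normalization they were -0.076 for SPT16, -0.11 for SSRP1, -0.10 for TFIIS, -0.16 for CDC73 and -1.01 for CAB1, which was then called lower (limma adjusted p = 0.00162). With 1 replicate left out the log2 change ran from -0.031 to 0.29 for SPT16, -0.016 to 0.29 for TFIIS, -0.036 to 0.23 for CDC73, 0.030 to 0.43 for VIP4, 0.14 to 0.38 for SPT6L, -0.18 to 0.39 for CAB1 and -0.23 to 0.084 for IWS1. NRPB2 and ELF7 kept a positive log2 change under all 11. Of 19 other named genes called, 5 lost the call after median-of-ratios rescaling, 14 without mutant replicate 1 and 16 without mutant replicate 2. With 2 columns per genotype the 95% intervals of the 10 had a median half-width of 0.42 on the log2 scale. Intervals of that width cannot tell smaller changes from 0. Larger changes can also miss the adjusted threshold, as ELF7 did at 0.57 (limma adjusted p = 0.0709).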
